A study of Phaseolus vulgaris with 2 samples.

Results

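The lignin biosynthesis genes of common bean (Phaseolus vulgaris) described here are the 70 genes, out of 27197 in the deposited expression table, whose Gene Ontology (GO) list holds the term lignin biosynthetic process and holds neither secondary cell wall biogenesis nor cellulose synthase (UDP-forming) activity. A further 11 genes carry the lignin term and are left out by this rule. The data come from wild type plants of the cultivar Pinto Saltillo (PS), and the comparison asks how transcript levels differ under water deficit. Well-watered plants (control) were compared with plants kept without irrigation for 2 weeks from 45 days of age (drought). Aerial tissue, which takes in trifoliate leaves, petioles, internodes and stems, was pooled from 6 to 9 plants, and the RNA of each condition was combined, so that the table gives 1 value per gene and condition although the labels speak of 2 extractions for each. No difference below therefore has a replicate check, and no test or p-value is given.

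Lignin is a polymer of phenylpropanoid alcohols, the monolignols, that stiffens and waterproofs the secondary walls of xylem vessels and fibres. Monolignols are made from phenylalanine through phenylalanine ammonia-lyase (PAL), cinnamate 4-hydroxylase (C4H) and 4-coumarate-CoA ligase (4CL), then through steps that include shikimate hydroxycinnamoyltransferase (HCT), coumarate 3-hydroxylase (C3H), caffeoyl-CoA O-methyltransferase (CCoAOMT), cinnamoyl-CoA reductase (CCR), ferulate 5-hydroxylase (F5H) and cinnamyl alcohol dehydrogenase (CAD). They are then exported to the wall, where laccases and peroxidases oxidise them into radicals that couple to the polymer. Early intermediates of the route are shared with flavonoids, coumarins and other phenolics.

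By their GO activity terms the members include 10 HCT, 1 C3H, 1 CCoAOMT, 11 CCR, 9 F5H and 9 CAD genes, 7 laccases, 4 coniferin beta-glucosidases, 2 chitinase-like genes, 2 genes of a vacuolar ATPase subunit, and 2 zinc-binding dehydrogenases without the CAD term. None of the genes with a PAL, C4H or 4CL term carries the lignin term in the table. The names give the annotated activity, and no enzyme was assayed. Expression is in FPKM, fragments scaled to transcript length and to the number of mapped reads, which allows levels to be compared between genes of a library. The log2 ratio is log2 of drought FPKM + 1 over control FPKM + 1, and the added 1 understates differences of genes with low FPKM. The values carry no read counts, so the depth behind each is unknown. FPKM of at least 1 in either library was reached by 48 members, 43 of them in both libraries, 4 in drought alone and 1 in control alone. Among the other 22, 3 were listed at 0 in both libraries and none exceeded 0.904 FPKM.

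As a set the members showed little shift between control and drought. Of these 48, 7 were at least 2-fold higher in drought, where the share over all 19661 genes that passed the same minimum was 11.7%, and 4 were at least 2-fold lower, where that share was 6.6%. A 4-fold difference was reached by 2 members in the higher direction (2.48% over all genes) and by 0 in the lower direction (1.62% over all genes). The median log2 ratio was 0.11 for the members and −0.03 for all genes. Within the set the ratios ran from −1.98 to 2.69, with 26 members above 0, where the share over all genes was 48.0%, and 22 below, where it was 52.0%. The direction of the 4 members that passed in drought alone, and of the 1 in control alone, was fixed by the minimum. Of the 43 that passed in both libraries, 5 were at least 2-fold higher and 4 lower, where the shares over all such genes were 8.24% and 6.38%. Their median was 0.01, against −0.07 for all such genes. The 70 members together had 1890 FPKM in control against 1629 in drought, which is 0.143% and 0.133% of the FPKM of each library. In bulk tissue, fewer cells of a type and less RNA per cell cannot be told apart.

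**Figure D1:**
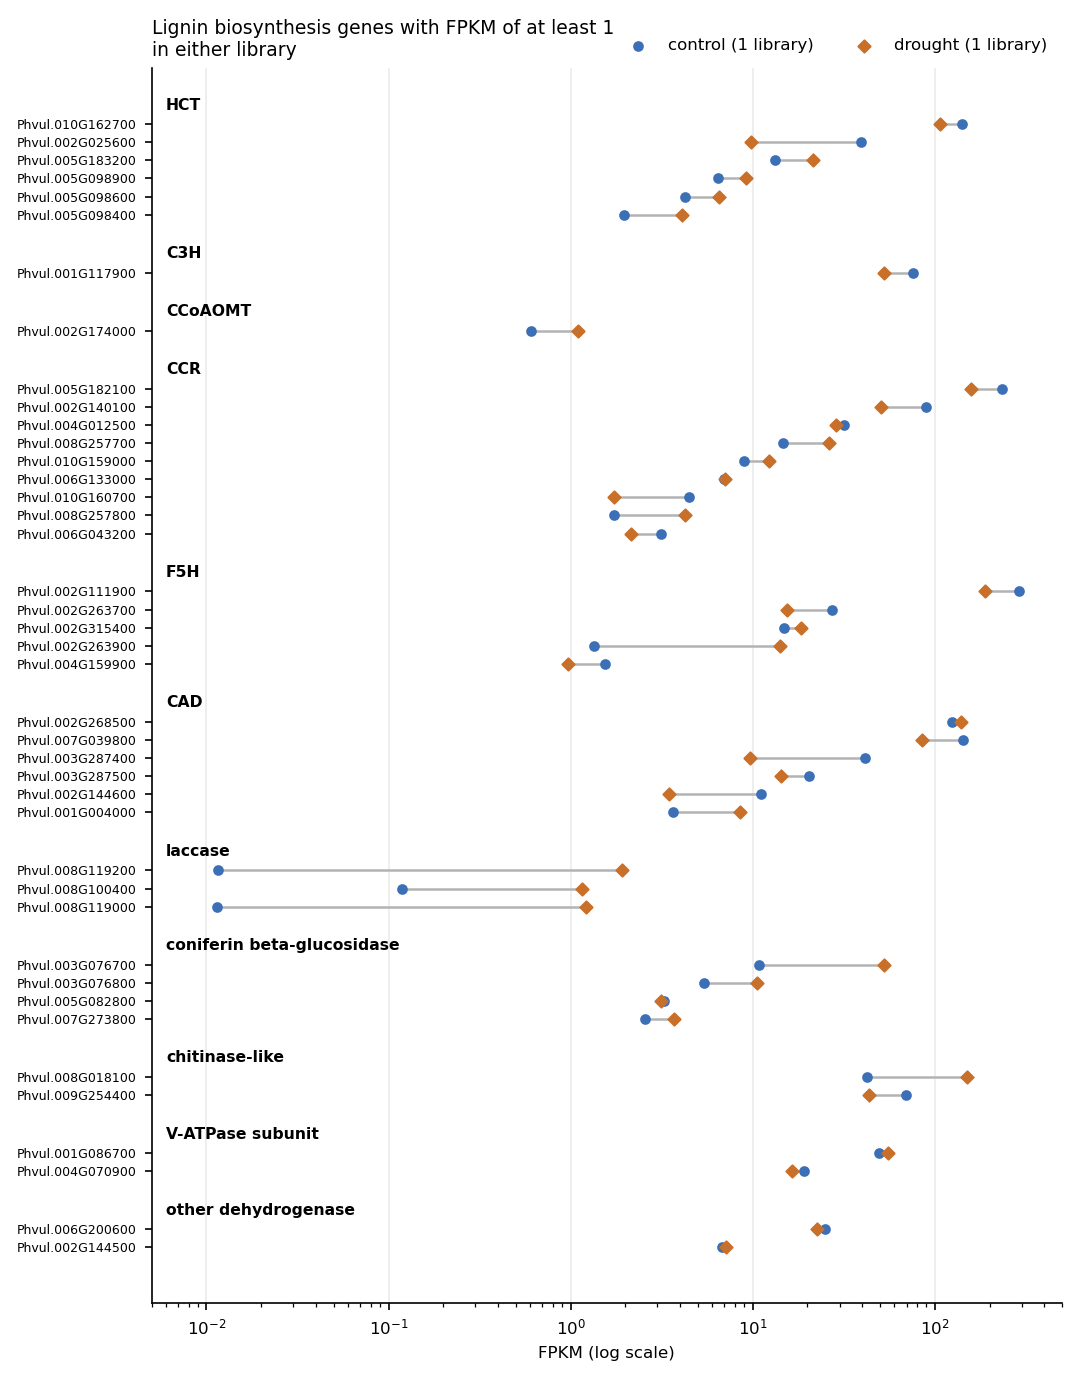
FPKM of 41 members that reached 1 FPKM in either library, on a log axis, by step of the pathway. Circles are the control library, diamonds the drought library, and a grey line joins both values of a gene. The leading genes of HCT, C3H, CCR and F5H lie to the left of their control value in drought, while all 3 laccases shown lie to the right. These laccases reached 1 FPKM in drought alone, so that their direction here was fixed by the minimum.

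Summed over the genes of a step, FPKM was lower in drought for HCT, C3H, CCR, F5H and CAD, with nothing added to sums here or below. HCT summed to 207 FPKM in control against 158 in drought, CCR to 395 and 291 FPKM, and F5H to 338 and 239 FPKM. CAD summed to 343 and 260 FPKM, and the single C3H gene had 76.0 and 52.8 FPKM. The log2 ratios of these 5 sums ran from −0.53 for C3H to −0.39 for HCT, against −0.10 for the sum of all genes. Each scaling tried adds the same small amount to all of these ratios, which then lay between −0.29 and −0.50, so this was no check of their direction.

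In 4 of these 5 steps the gene with the highest mean FPKM was lower in drought, CAD being the exception. Without the leading gene of every step, the other 58 members, pooled over all steps, summed to 749.9 FPKM in control against 599.6 in drought. Step by step, the genes that passed the minimum besides the leading gene were mixed. Those with a log2 ratio above 0 were 4 of 5 in HCT, 4 of 8 in CCR, 2 of 4 in F5H and 1 of 5 in CAD. F5H gene Phvul.002G111900, whose product directs monolignols towards syringyl units, was the most abundant of all members, with 292 FPKM in control against 189 in drought (log2 ratio −0.62). CCR, the enzyme that reduces hydroxycinnamoyl-CoA esters to aldehydes, was led by Phvul.005G182100, with 234 and 158 FPKM (log2 ratio −0.57). The second CCR gene by level, Phvul.002G140100, had 89.2 FPKM in control against 50.8 in drought (log2 ratio −0.80). Together these 3 genes were lower by 0.57 to 0.80 on the log2 scale, short of 2-fold.

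HCT gene Phvul.010G162700, on chromosome 10 from 43002237 to 43005277, encodes the acyltransferase that makes the shikimate ester used by C3H, and had 142 FPKM in control against 106 in drought (log2 ratio −0.41). C3H gene Phvul.001G117900, the only member with the p-coumarate 3-hydroxylase term, had a log2 ratio of −0.52. Both were also under 2-fold.

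CAD, which reduces the aldehydes to monolignols, had a pair of abundant genes that differed in direction. Phvul.002G268500 had 124 FPKM in control against 139 in drought (log2 ratio 0.16), while Phvul.007G039800 had 143 and 85.2 FPKM (log2 ratio −0.74). The share of the step's FPKM taken by Phvul.002G268500 was thus 36.0% in control and 53.3% in drought.

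Grouped by the mean FPKM of both libraries, the direction of the members differed with level. With a mean of at least 50 FPKM, 9 of 12 members were lower in drought, with a median log2 ratio of −0.52, against 57.3% lower and a median of −0.11 for the 2958 genes of the table at that level. Between 10 and 50 FPKM, 7 of 14 members were lower and the median was 0.08, against 60.1% and −0.12 for all genes. Between 1 and 10 FPKM, 6 of 18 were lower and the median was 0.39, against 44.7% and 0.08 for all genes. The 3 abundant members that were not lower were the CAD gene Phvul.002G268500, the V-ATPase gene Phvul.001G086700 and the chitinase-like gene Phvul.008G018100.

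**Figure D2:**
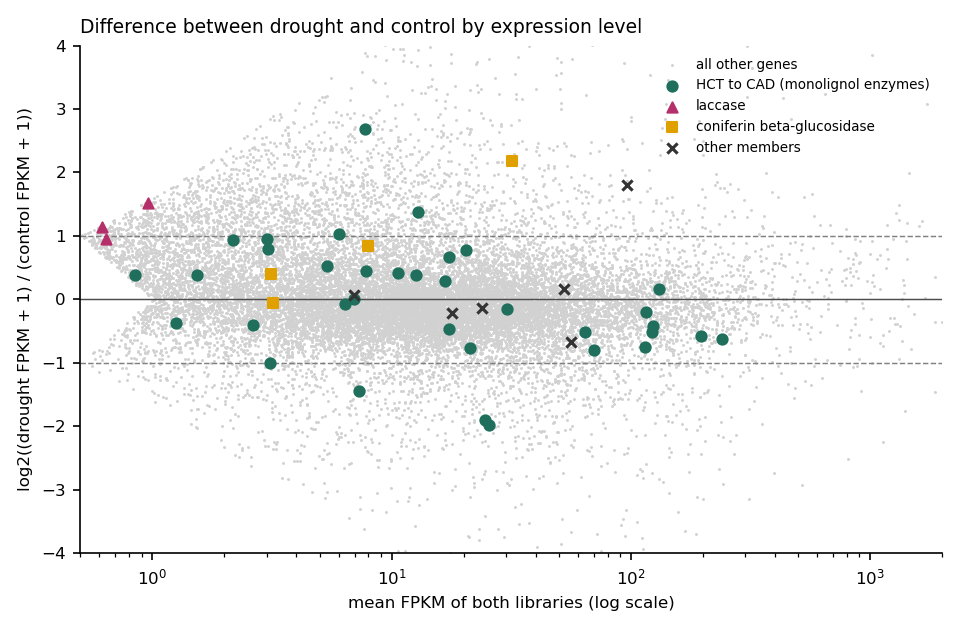
Log2 ratio of drought over control (FPKM + 1) against the mean FPKM of both libraries on a log axis, with the members coloured by group, all other genes that reached 1 FPKM in grey, and dashed lines at 2-fold. Outside the drawn range lie 97 of the grey genes. Members with a mean of at least 50 FPKM lie mostly just below 0, and the 3 laccases sit at the left edge, where the added 1 bounds the ratio.

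Larger differences were found in less abundant genes of the same steps, in both directions. With 1 FPKM added, the member with the largest log2 ratio was the F5H gene Phvul.002G263900, on chromosome 2 from 42988804 to 42990967, at 1.35 FPKM in control against 14.2 in drought (log2 ratio 2.69). With 0.1 FPKM added its ratio was 3.30, below those of the laccases Phvul.008G119200 (4.17) and Phvul.008G119000 (3.57). A gene near Phvul.002G263900, Phvul.002G263700, from 42978785 to 42980761, also carries the F5H term. It had 27.2 FPKM in control against 15.5 in drought (log2 ratio −0.77). The stretch from one to the other spans 3 genes of the table, so they are not directly adjacent. These 2 F5H genes summed to 28.5 and 29.7 FPKM, so that their sum was near equal in both libraries while their shares of it were not. The other F5H genes above 1 FPKM, Phvul.002G315400 and Phvul.004G159900, had log2 ratios of 0.29 and −0.37.

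On the lower side, the CAD gene Phvul.003G287400, on chromosome 3 from 51328145 to 51330074, had the lowest ratio of all members, with 41.2 FPKM in control against 9.72 in drought (log2 ratio −1.98, and −2.07, past 4-fold, with 0.1 FPKM added in place of 1). Phvul.002G144600, another CAD gene, had 11.1 and 3.46 FPKM (log2 ratio −1.44). Both belong to 6 CAD genes that also carry the terms mannitol dehydrogenase activity, response to bacterium and plant-type hypersensitive response. Of these 6, the 3 above 1 FPKM all had lower values in drought, and the group summed to 72.9 FPKM in control against 27.8 in drought (log2 ratio −1.39). The 3 CAD genes without those terms summed to 271 and 232 FPKM (log2 ratio −0.22), and held Phvul.001G004000, which was 2-fold higher in drought at 8.47 against 3.63 FPKM.

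HCT gene Phvul.002G025600, on chromosome 2 from 2753756 to 2755432, was also among the lowest, with 39.3 FPKM in control against 9.79 in drought (log2 ratio −1.90). The 4 other HCT genes that passed the minimum besides the leading gene, all on chromosome 5, had higher values in drought, with log2 ratios from 0.45 to 0.79. In CCR one gene passed 2-fold, Phvul.010G160700, at 4.49 FPKM in control against 1.73 in drought (log2 ratio −1.01). It was short of 2-fold under each scaling of the libraries, at −0.87 to −0.98. This CCR gene shares its full list of terms, among them response to cold, with the leading CCR gene. Phvul.008G257800, with the CCR and glucosinolate biosynthetic process terms, went the other way, with 1.72 and 4.27 FPKM (log2 ratio 0.95), and passed 2-fold with 0.1 FPKM added (1.26) and when the libraries were divided by their 75th percentile (1.01).

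Many members lie close to others of their step on a chromosome, a feature that the choice of members did not use. With neighbours taken as genes of the same step at most 200 kb apart, a distance set after the loci had been seen, 41 of the 70 members fell into 14 runs. The members in runs were mostly low, with 23 of 41 above 1 FPKM, a control sum of 329 FPKM and a median ratio of 0.52 on the log2 scale. The 29 members outside runs summed to 1562 FPKM in control, 25 of them passed the minimum, and their median log2 ratio was −0.14. Among the 23, the 3 laccases passed in drought alone and the F5H gene Phvul.004G159900 in control alone, so that their directions were fixed by the minimum. Level also differed, and the median of all members was 0.39 between 1 and 10 FPKM and −0.52 from 50 FPKM. Runs and level were not separated. Reads of similar neighbouring copies may be assigned to either copy, and how far they were was not tested.

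**Figure D3:**
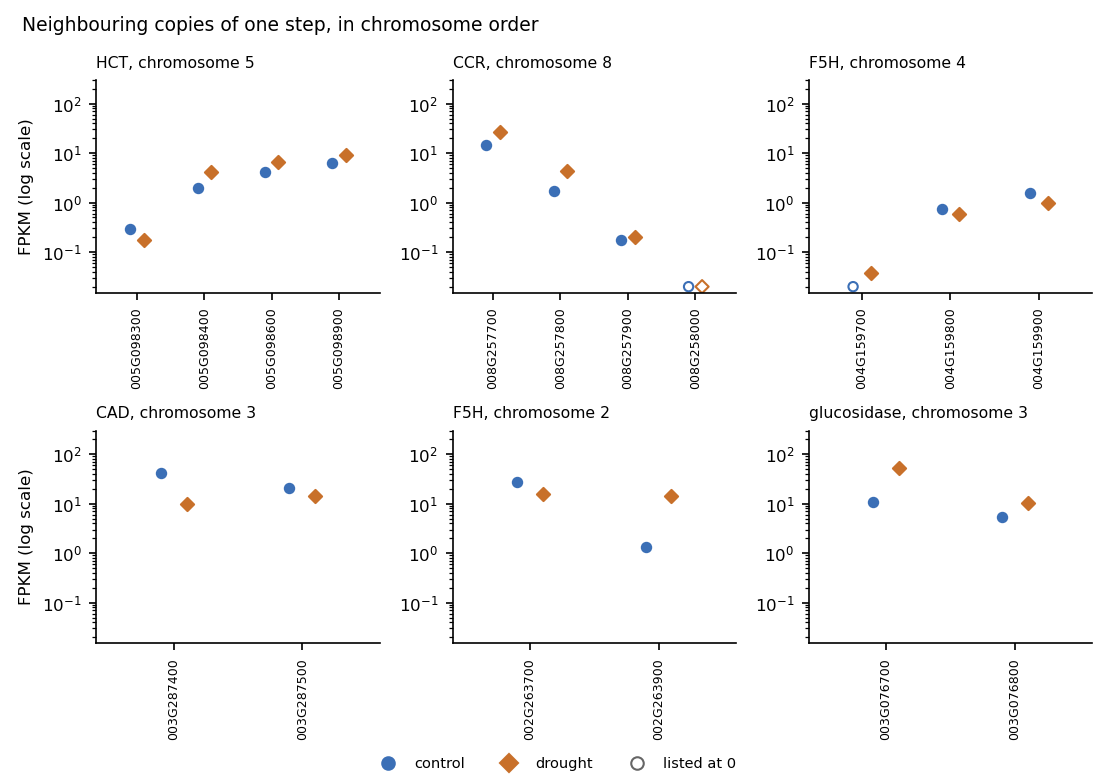
FPKM in control (circles) and drought (diamonds), on a log axis, of neighbouring copies of one step in their order on the chromosome, for 6 of the 14 runs. Open symbols mark genes listed at 0. Both copies of the CAD pair on chromosome 3 are lower in drought, and those of the F5H pair on chromosome 2 differ in direction.

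In the run of 4 CCR genes on chromosome 8 the levels stepped down along the chromosome. Phvul.008G257700 had 14.8 FPKM in control against 26.2 in drought, Phvul.008G257800 had the values given above, Phvul.008G257900 stayed under 0.2 FPKM, and Phvul.008G258000 was listed at 0. A pair of CAD genes on chromosome 3 had the same direction with unequal size, since Phvul.003G287500, beside Phvul.003G287400, had 20.3 and 14.4 FPKM (log2 ratio −0.47). Neighbouring members thus had the same direction in the CAD pair on chromosome 3 and opposite directions in the F5H pair on chromosome 2.

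Laccases, copper oxidases of the wall that polymerise monolignols, were the step with the lowest sum in control, and the only one of more than 1 gene in which no member was lower in drought. Phvul.008G119200, on chromosome 8 from 15075946 to 15079855, was at 0.0115 FPKM in control against 1.91 in drought (log2 ratio 1.53). Phvul.008G119000, in the same run, had 0.0114 and 1.22 FPKM (log2 ratio 1.13). With 0.1 FPKM added in place of 1, these ratios became 4.17 and 3.57. Their control values are close to the lowest that the library gives, with 109 and 105 genes between them and 0, so that the size of these ratios is set by the added value.

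Phvul.008G100400 had 0.119 FPKM in control against 1.16 in drought (log2 ratio 0.95). Phvul.007G086400 and its neighbour Phvul.007G086500 reached 0.904 and 0.784 FPKM in drought, from 0.223 and 0.0253 FPKM in control. Phvul.008G100500 was the lowest of them in drought, at 0.0147 and 0.365 FPKM, and Phvul.004G087000 was listed at 0 in both libraries. Summed over the 7 laccases, FPKM was 0.405 in control and 6.35 in drought. All 6 with a value above 0 were higher in drought, and among all 5712 genes of the table with a mean between 0 and 1 FPKM the share higher in drought was 69.0%. The 3 laccases that passed the minimum did so through the drought library alone.

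The table holds 29 genes with the laccase term hydroquinone:oxygen oxidoreductase activity, of which 7 are members and 8 carry the lignin term together with secondary cell wall biogenesis. In the latter group, 6 of 8 were higher in drought and the sum was 1.17 FPKM in control against 12.5 in drought. Only 3 of the 8 reached 1 FPKM, all in drought alone. This group includes IRX12 (Phvul.006G065800), the counterpart of an Arabidopsis laccase of xylem lignification, at 0.381 and 3.66 FPKM. Of the 14 laccase genes without the lignin term, 9 were higher in drought, 3 lower and 2 at 0 in both libraries. Many genes of both groups are low, and 69.0% of all genes with a mean between 0 and 1 FPKM were higher in drought. The 3 lower genes were the only laccases above 5 FPKM in control, and went from a sum of 94.6 FPKM in control to 20.2 FPKM in drought. The most abundant, LAC7 (Phvul.010G005900), had 64.3 and 8.51 FPKM (log2 ratio −2.78), and outweighed the others, so that all laccases together summed to 99.3 FPKM in control against 49.8 in drought.

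**Figure D4:**
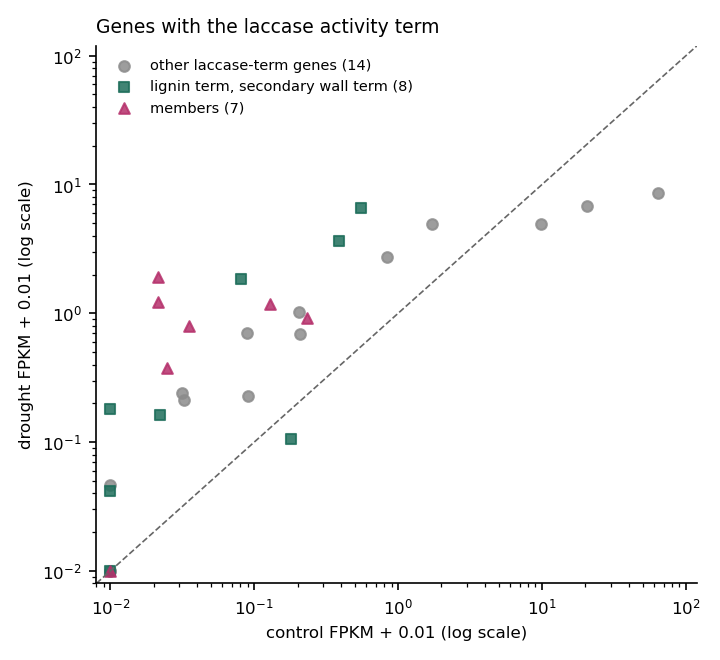
Drought against control FPKM (each with 0.01 added, log axes) of the 29 genes with the laccase activity term. Triangles are the 7 members, squares the 8 genes with the lignin and secondary wall terms, circles the other 14, and the dashed line marks equal values. The members lie above the line except for 1 gene at 0 in both libraries, and the 3 genes of highest control FPKM lie below it.

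Many genes annotated to secondary walls, though not their whole lists, were also higher in drought. Of the 78 genes of secondary cell wall biogenesis, which hold no member by the rule, 55 passed the minimum, 39 of them were at least 2-fold higher in drought and 0 at least 2-fold lower, 8 had a ratio below 0, and the sum of all 78 was 471 FPKM in control against 833 in drought. The minimum was passed in drought alone by 31 of the 55, which had to be higher there, and of the 23 that passed in both libraries 9 were at least 2-fold higher and 0 lower, where the share higher over all genes passing in both was 8.24%. Xylem development, with 114 genes, had 26 of 75 at least 2-fold higher and 3 lower, 28 of the 75 having passed in drought alone. Of its 44 genes that passed in both libraries, 8 were higher and 3 lower, where the share lower over all such genes was 6.38%. Its sum was lower in drought, 2295 against 2567 FPKM. The cellulose synthase term had 15 of 32 higher and 1 lower, where the shares over all genes were 11.7% and 6.6%. How many of these 32 passed in drought alone was not counted. Of the 11 genes with the lignin term that the rule leaves out, 6 passed the minimum, 3 of them in drought alone, so that their direction was fixed by the minimum, and the 3 that passed in both libraries were at least 2-fold higher. The part of an altered share of xylem or stem tissue in the laccase values was not tested.

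Coniferin beta-glucosidases release coniferyl alcohol from its stored glucoside. BGLU46 (Phvul.003G076700), on chromosome 3 from 11955346 to 11959220, was at 10.9 FPKM in control against 52.9 in drought (log2 ratio 2.18), and was the second member past 4-fold. Its neighbour Phvul.003G076800 had 5.42 and 10.5 FPKM (log2 ratio 0.84). The other genes of this activity, Phvul.007G273800 and Phvul.005G082800, were close between the libraries, at 2.58 and 3.70 FPKM and at 3.27 and 3.12 FPKM. The 4 genes summed to 22.2 FPKM in control against 70.3 in drought, of which BGLU46 made up 49.1% and 75.3%.

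Among the remaining members, the 2 chitinase-like genes differed in direction. These genes carry the terms chitinase activity, polysaccharide biosynthetic process and response to water deprivation, and in Arabidopsis a chitinase-like protein takes part in cellulose deposition, its loss leading to lignin in cells that normally have none. Their GO lists end at 1024 characters in the table, so that terms beyond that point, which could have left them out by the rule, were not read. Phvul.008G018100, on chromosome 8 from 1536159 to 1539706, was at 42.3 FPKM in control against 150 in drought (log2 ratio 1.80), the largest ratio among members with a mean of at least 50 FPKM. Phvul.009G254400, on chromosome 9 from 36719652 to 36722364, was the more abundant copy in control at 69.4 FPKM and the less abundant in drought at 43.3 FPKM (log2 ratio −0.67). The first copy took 37.9% of their summed FPKM in control and 77.6% in drought.

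The subunit genes of the vacuolar proton pump were near equal in both libraries, with 49.6 and 55.6 FPKM for Phvul.001G086700 and 19.2 and 16.4 FPKM for Phvul.004G070900. The zinc-binding dehydrogenases without the CAD term were also close, at 25.0 and 22.6 FPKM for Phvul.006G200600 and 6.80 and 7.16 FPKM for Phvul.002G144500. The only CCoAOMT member, Phvul.002G174000, was low, at 0.604 FPKM in control against 1.09 in drought.

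The genes of the pathway that lack the lignin term complete the route. CCoAOMT, which methylates caffeoyl-CoA, is carried mainly by Phvul.003G047900, with 107 FPKM in control against 156 in drought, and Phvul.003G242400, with 35.5 and 93.5 FPKM (log2 ratio 1.37). With the member included, the 4 CCoAOMT genes summed to 147 FPKM in control against 251 in drought (log2 ratio 0.77), against the lower sums of HCT, C3H, CCR, F5H and CAD described above. The remaining CCoAOMT gene, Phvul.002G017500, had 4.07 and 0.786 FPKM.

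At the entry of the route the picture was mixed. Of the 6 PAL genes, 5 passed the minimum, 0 were at least 2-fold higher and 1 was 2-fold lower, with a median log2 ratio of −0.33. Phvul.008G289500, the most abundant PAL gene in control, had 59.7 and 37.2 FPKM, and Phvul.007G150500 had 30.8 and 46.4 FPKM, so that their order was exchanged in drought. The dominant C4H gene, Phvul.008G247400, had 102 and 117 FPKM. Of the 14 genes with the 4CL term, 10 passed the minimum, 8 of these were lower in drought, and 3 were lower by at least 2-fold against 1 higher. Over all genes that passed the minimum, 52.0% were lower in drought, 6.6% at least 2-fold lower and 11.7% at least 2-fold higher. The PAL and 4CL lists are short beside these shares. Phvul.011G084300, the most abundant of them in control, had 208 and 110 FPKM (log2 ratio −0.92), and 4CL2 (Phvul.003G146900) had 30.2 and 5.44 FPKM (log2 ratio −2.28).

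**Figure D5:**
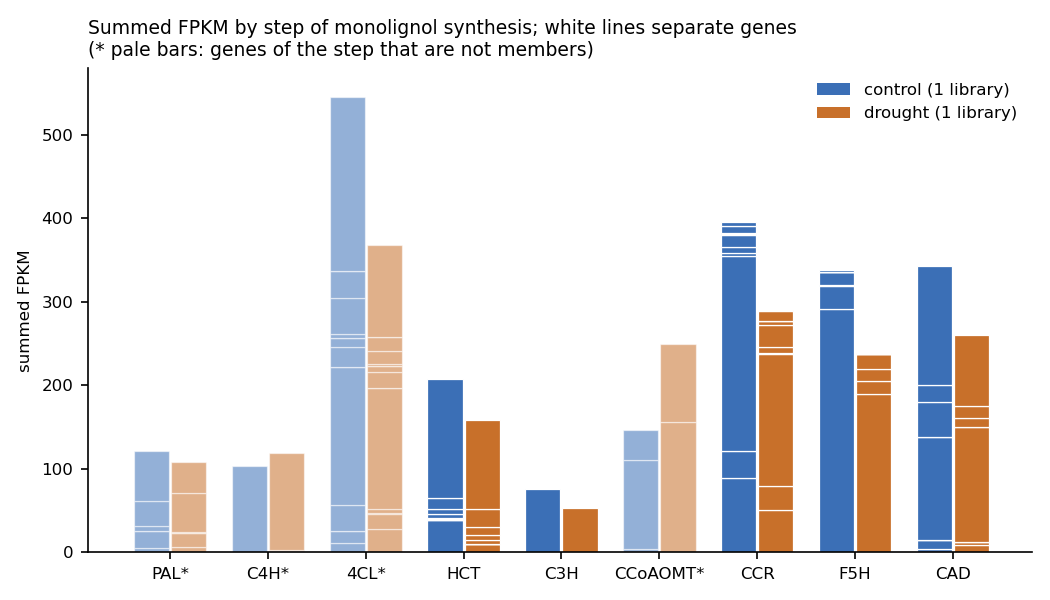
Summed FPKM of 9 steps of monolignol synthesis in control and drought, with white lines between genes. Full colours are members, and pale bars, marked with an asterisk, are genes of PAL, C4H, 4CL and CCoAOMT that are not members. CCoAOMT without its low member has 146 FPKM in control against 249.9 in drought and is higher in drought, as is C4H, while the other steps drawn are lower.

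Other terms touching the same compounds were counted over their genes that are not members. The shares over all genes that passed the minimum were 11.7% at least 2-fold higher and 6.6% lower. How many genes of the lists in this paragraph passed in drought alone was not counted. Peroxidase activity, the other route to monolignol radicals, had 16 of 53 genes at least 2-fold higher and 8 lower, with a median log2 ratio of 0.48. Flavonoid biosynthetic process, a competing branch, had 6 of 54 higher and 10 lower, with a median of −0.26 and a sum of 3951 FPKM in control against 1945 in drought. Suberin biosynthetic process had 0 of 7 higher and 2 lower, with a median of −0.81. Coumarin biosynthetic process, the term that 26 members share, had 6 of 61 higher and 9 lower and a median of 0.02. The 26 members with this term had a median of 0.38 over the 17 that passed the minimum. L-phenylalanine biosynthetic process, which supplies the route, had 2 of 8 higher and 0 lower. Phenylpropanoid metabolic process had 13 of 53 higher and 8 lower, with a median of 0.07, and xylan biosynthetic process 44 of 175 higher and 6 lower.

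More genes passed the minimum in the drought library (19216) than in the control library (18046). Those that passed in drought alone numbered 1615, against 445 in control alone. The laccase members that passed and 31 genes of secondary cell wall biogenesis are among the 1615. Photosynthesis genes, read as a check of the labelled aerial tissue, were abundant, and the median of the 11 photosystem I genes was 437 FPKM in control against 650 in drought and that of the 22 photosystem II genes 66.9 and 82.3 FPKM. The 102 genes of leaf senescence had a median log2 ratio of −0.15, with 3 of 78 at least 2-fold higher and 10 lower, where the shares over all genes were 11.7% and 6.6%. The root hair terms, read as a check for other tissue, were not silent and had medians of 0.18 for root hair cell differentiation and 0.43 for root hair elongation. Root hair cell differentiation had 19 of 117 genes at least 2-fold higher and 3 lower, and root hair elongation 53 of 193 higher and 7 lower. How many of these passed in drought alone was not counted.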

How the data were processed

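Per the labels and the study's methods, RNA-Seq libraries were made from pooled aerial tissue of PS plants, base calls were made with CASAVA 1.8.2, and reads were checked with FastQC and mapped with TopHat, as named in the submitters' processing notes. The authors used Cuffdiff to make the deposited FPKM values, 1 per gene in control and drought. The table also holds their own fold changes, test statistics, p-values and q-values, none of which were used. Annotation 2.1 is given in the methods, but identifiers in the table carry the suffix 1.0, which leaves the build of the coordinates unsettled. Locus starts were raised by 1 to count from 1.

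With 1 value per condition no test was run. Genes that reached 1 FPKM in one or both libraries were compared by log2((drought + 1)/(control + 1)), and a ratio of at least 1 or at most −1 was counted as 2-fold, with 4-fold beside it. Calculations used python 3.11.15, pandas 2.3.3, numpy 2.4.6 and matplotlib 3.10.9, and the counting was tested on simulated data. Alternatives were the added value, the FPKM minimum, the scaling of the libraries, the fold limit and the rule for members. The members and gene lists were chosen with earlier results of these data known. Members named were those past 4-fold, the 8 highest and the 8 lowest ratios, and the member of highest mean FPKM in each step. Other genes named, the neighbour distance, the C4H list and the counts of secondary wall lists by library passed were chosen after the values were seen. Symbols such as BGLU46 come from the study's tables and roles from GO terms. Promoter and protein sequences were not analysed here. One group of members enters the counts over all members and is not reported on its own.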

Additional observations from a re-analysis of the deposited data

How the results depend on the processing

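The number of members at least 2-fold higher in drought was 7 with 1 FPKM added to both values. It was 11 with 0.1 added and 11 with 0.01 added, where the share over all genes went from 11.7% to 15.8% and 16.2%. It was 13 with the genes that the rule leaves out, and 2 at a 4-fold limit. The number at least 2-fold lower was 4, and 0 at a 4-fold limit. The median log2 ratio of 0.11 became -0.068 with a minimum of 5 FPKM in either library, where that of all genes was −0.09. These moves follow from how each alternative is built, since a smaller added value widens the ratios of low genes such as the laccases and a higher minimum removes them. With the genes that the rule leaves out, the median was 0.34. Under the other alternatives the higher count ran from 5 to 8, the lower count from 3 to 4, and the median from 0.01 to 0.18. Of the 25 members chosen by rule, 0 changed direction. An added value cannot change a direction, and each scaling shifts all ratios by a similar small amount, so this was no check. Under each added value or scaling, 1 or 2 of the 25 crossed 2-fold. Among these, Phvul.010G160700 was under 2-fold in every scaling and Phvul.008G119000 was at 0.98 with both libraries scaled to the same sum. No paired analysis was possible because each condition has 1 value per gene. Without replicates or read counts, neither the error of a value nor the smallest difference that could be seen is known.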
